A study of Mus musculus with 6 samples.

Results

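Type 1 conventional dendritic cells (cDC1) were picked out of spleen single-cell libraries by a gate on their own transcripts, which kept 210 of 31457 cells. A cell entered the gate with at least 1 unique molecular identifier (UMI, 1 captured transcript) of Xcr1 or Clec9a, at least 2 of Flt3, Itgax and Irf8 together, at least 3 of H2-Aa, at most 1 of Cd79a, and none of Cd3e, Cd3d or Siglech. The members were thus chosen by the UMI counts of these 10 genes, which are given below as a description and were not tested. Splenocytes came from wild-type C57BL/6 mice that started at 6 weeks of age and ate for 7 weeks either a normal diet (ND) or MCDHFD, the submitters' diet for modelling metabolic dysfunction-associated steatohepatitis, a fatty liver disease with inflammation. Each diet had 3 libraries, and the sample titles call the second diet MCD. Whether the libraries came from separate animals is not stated in the labels, so p-values measure the spread between these libraries, which may be technical in part. The diet was the sole labelled difference between the groups, and no transgene, Cre or other treatment is named.

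cDC1 are the dendritic cells that take up dying cells and present their antigens on MHC class I to CD8 T cells, a process called cross-presentation. They develop under the transcription factors Irf8, Batf3 and Id2 and the cytokine receptor Flt3. Their surface carries Xcr1, a receptor for the chemokine XCL1 made by activated CD8 T and NK cells, and Clec9a, a lectin that binds actin filaments exposed by dead cells. In mouse spleen many of them also carry CD8 alpha. The study's title concerns splenic CD8 T cells, which are the main partners of cDC1. The other conventional dendritic cells of the spleen, type 2, present mainly on MHC class II to CD4 T cells. They were represented here by 98 cells that passed the same gate with at least 1 Cd209a UMI and no Xcr1 or Clec9a UMI.

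The libraries held between 3273 and 6606 cells and between 21259837 and 62238012 UMIs in all. The gated cells numbered 38, 26 and 27 in ND libraries 1, 2 and 3, and 46, 49 and 24 in MCDHFD libraries 1, 2 and 3, with a median of 10632 UMIs per cell. ND 2 and MCDHFD 3 were deposited with filtered barcode lists from another software version than the other 4 libraries, and their median mitochondrial share was 0.571% and 1.68% against 3.73% to 3.96% elsewhere. Each diet therefore had 1 library of this form, which entered the gene models as a term. No gated barcode was shared between libraries, and 2 gated cells were predicted doublets, although no doublet was predicted anywhere in the 2 filtered-list libraries. In these data fewer cells of a kind and less RNA per cell cannot be told apart in a summed level.

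The gate held 3 kinds of cell by markers it did not use. The first kind, 140 of 210 cells (66.7%, 95% Wilson interval 60.04% to 72.7%, counting error only), had at least as many UMIs of 7 other cDC1 markers (Batf3, Cadm1, Naaa, Wdfy4, Itgae, Tlr3 and Ifi205) as of 5 Cd209a-type markers (Cd209a, Sirpa, Clec4a4, Clec10a and Irf4). Naaa, a lysosomal lipid hydrolase, had a UMI in 85.0% of these cells, Ifi205 in 77.9%, Wdfy4, which cross-presentation requires, in 86.4%, and Cd8a in 58.6%. B cells, which should lack these markers, had a Naaa UMI in 8.95%, an Ifi205 UMI in 0.214% and a Cd8a UMI in 2.05% of 16327 cells, at median depths of 3787 to 6235 UMIs per library against 6103 to 13718 in the 140 cells. Thinned to 2000 UMIs, the 140 cells kept 130, of which 72.3% had Naaa, 47.7% Ifi205 and 32.3% Cd8a, and the B cells had 3.19%, 0.0811% and 0.798%. Of 95 Cd209a-positive cells left after the macrophage-marker rule below, 36.8% had Naaa, 3.16% Ifi205 and 4.21% Cd8a. After thinning the shares were 8.51%, 0.0% and 3.19% of 94 such cells. The second kind, 22 cells (10.5%), had more UMIs of the Cd209a-type markers. All 22 entered through Clec9a alone, and 86.4% of them had Cd209a UMIs. The third kind, 48 cells (22.9%, interval 17.7% to 29.0%), held at least 10 UMIs of 9 red pulp macrophage markers (Spic, Vcam1, C1qa, C1qb, C1qc, Hmox1, Slc40a1, Cd5l and Axl), with a median of 201 such UMIs. Red pulp macrophages are the spleen cells that clear old red blood cells and recycle their iron.

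The shares of Naaa, Ifi205 and Wdfy4 in the 140 cells follow from the sorting, which used these genes, while Cd8a was not used. The rule kept cells in which the marker sets tied. Some markers of the other 2 kinds went against the label cDC1, and others did not. In the 22 Cd209a-type cells Xcr1, Itgae and Tlr3 had no UMI, and Ifi205 had one in 18.2% and Naaa in 31.8%. Batf3 had one in 63.6% of them, Wdfy4 in 68.2% and Flt3 in 86.4%. In the 48 macrophage-marker cells Xcr1 had a UMI in 8.33%, Flt3 in 6.25%, Ifi205 in 8.33% and Naaa in 20.8%. Batf3 had one in 50.0% of these 48, Wdfy4 in 91.7%, Irf8 in 97.9%, and Sirpa and Cadm1 each in 93.8%. The 7 cDC1 markers had a median of 22.5 UMIs in the 48 cells and 16.5 in the 140. Their Clec9a averaged 1.38 UMIs per cell, and 33 of the 48 entered the gate on a single Xcr1 or Clec9a UMI. The macrophage markers split the gated cells into separate groups: 116 cells had none of these UMIs, 46 had 1 to 9, 3 had 10 to 43 and 45 had 44 or more. The rules for the 3 kinds were chosen after these values were seen, so values in the 140 cells are given below as a description, with no p-value.

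**Figure D1:**
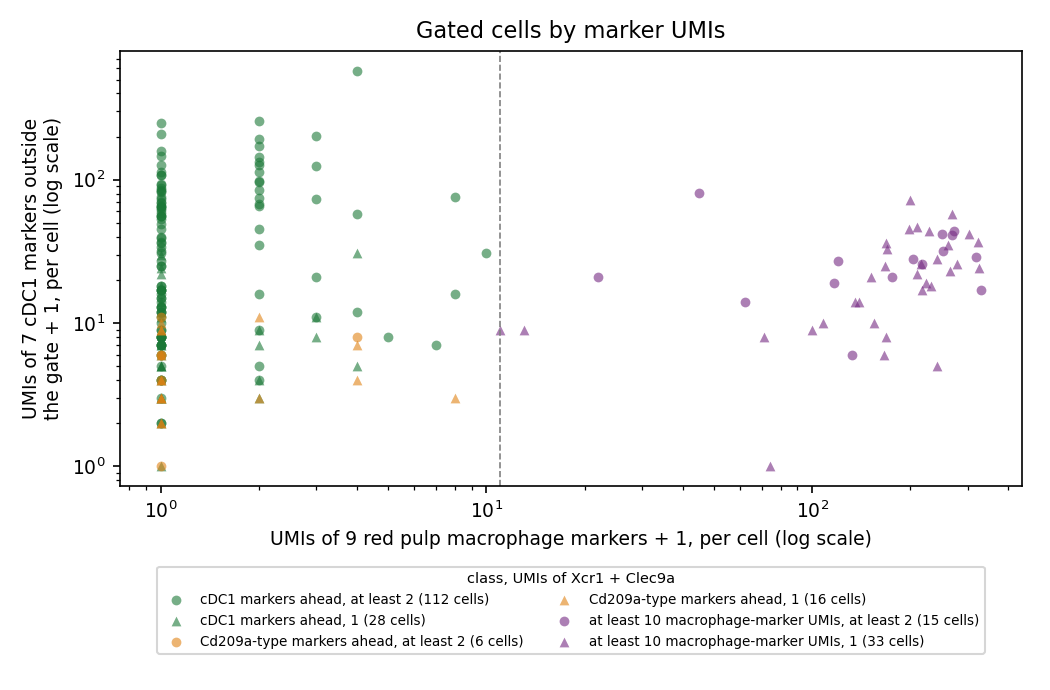
Each point is 1 gated cell, placed by its UMIs of 9 red pulp macrophage markers (x axis, plus 1, log scale) and of 7 cDC1 markers outside the gate (y axis, plus 1, log scale). Colour gives the kind of cell and shape whether 1 or at least 2 UMIs of Xcr1 and Clec9a were present; the 48 macrophage-marker cells lie right of the dashed line, and 33 of them had 1 such UMI.

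The cells at the edge of the gate differed from those well inside it. Of the 210 cells, 77 had exactly 1 UMI of Xcr1 and Clec9a together, and 472 cells passed all other criteria with none. The 77 cells had a median of 8 UMIs of the 7 cDC1 markers and 2 of the macrophage markers, and the 472 just outside had medians of 5 and 0. Naaa had a UMI in 33.8% of the 77 cells against 82.7% of the 133 cells with 2 or more, and Sirpa, a type 2 marker, in 66.2% against 15.8%. Median depth was 9618 and 11363 UMIs in the 77 and the 133 cells. At the other limits, 12 cells had exactly 3 H2-Aa UMIs and 6 had 2, 21 cells had exactly 2 UMIs of Flt3, Itgax and Irf8 and 9 had 1, and 35 cells had 1 Cd79a UMI and 1 cell had 2. Both Xcr1 and Clec9a were found in 89 cells, Clec9a alone in 103 and Xcr1 alone in 18.

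The kinds of cell were unevenly spread over the libraries. The macrophage-marker cells numbered 16, 3 and 8 in ND 1, 2 and 3 and 13, 5 and 3 in MCDHFD 1, 2 and 3. The Cd209a-type cells numbered 6, 5 and 4 on ND and 4, 3 and 0 on MCDHFD. The cells led by cDC1 markers numbered 16, 18 and 15 on ND and 29, 41 and 21 on MCDHFD. A level in the whole gate therefore mixes these kinds in other proportions on each diet, and the levels below are given for the 140 cells as well.

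The share of gated cells among spleen cells differed between the diets by less than the spread of the ND libraries. The gated cells were 0.708% ± 0.0343 of all cells on MCDHFD and 0.640% ± 0.135 on ND (SD, n = 3 libraries each), a difference of 0.0673 percentage points (two-sided exact permutation test, p = 0.4, where 0.1 is the smallest p that 3 against 3 can give). The difference was 0.158 points among the 4 libraries with unfiltered lists and -0.114 points between the filtered pair, so its sign was not the same within the 2 forms. With every cell thinned to 2000 UMIs before gating, the shares were 0.392% ± 0.0787 and 0.299% ± 0.219. Without ND 2 the difference was 0.144 points, and without ND 3 it was 0.0197. The 140 cells led by cDC1 markers were 0.553% ± 0.0997 of cells on MCDHFD and 0.366% ± 0.162 on ND, a difference of 0.187 points, with overlapping libraries.

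**Figure D2:**
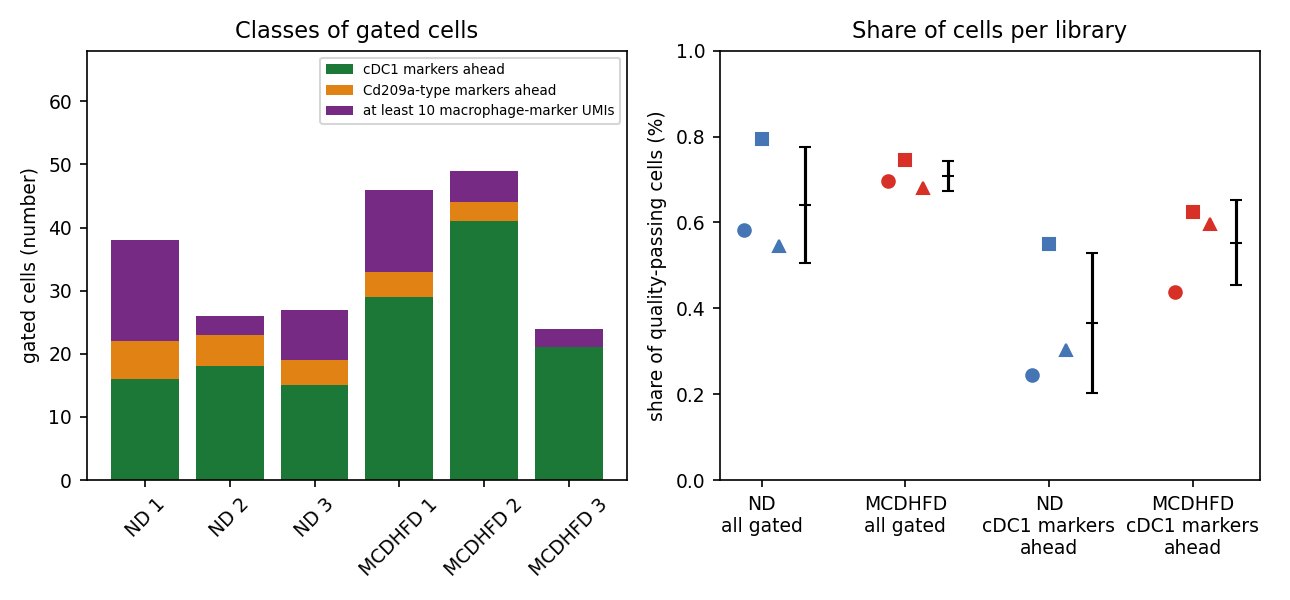
Left, gated cells per library by kind. Right, gated cells as a percentage of all cells that passed the quality limits, for the whole gate and for the 140 cells led by cDC1 markers; blue is ND, red is MCDHFD, circle, square and triangle are libraries 1, 2 and 3, and the black bar is the mean ± SD of 3 libraries. The diets overlap in both sets.

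The balance of gated to Cd209a-positive cells overlapped between the diets. Gated cells were 69.6% ± 6.35 of the 2 gates together on MCDHFD and 68.5% ± 9.52 on ND (SD, n = 3), a difference of 1.12 points (two-sided exact permutation test, p = 0.9). The difference was 5.78 points among the unfiltered-list libraries and -8.20 points in the filtered pair. It turned to -3.12 points without ND 3 and to -1.78 points without MCDHFD 1. Without the macrophage-marker cells the difference was 5.79 points, and with the 140 cells alone it was 10.5 points, from 65.3% ± 6.00 on MCDHFD and 54.9% ± 14.9 on ND.

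The genes of the gate set the frame for all later levels. Levels are given as CPM, the UMIs of a gene scaled to a fixed total over the summed cells of a library. CPM is used to compare libraries and cell types for 1 gene, not genes with each other. Xcr1, at chr9:123852315-123862029 on the minus strand of GRCm38 (GENCODE vM21), had 168, 187 and 173 CPM in ND 1, 2 and 3 and 177, 188 and 219 CPM in MCDHFD 1, 2 and 3. Clec9a, at chr6:129408862-129424763 on the plus strand, had 229, 389 and 311 CPM on ND and 239, 337 and 409 CPM on MCDHFD. Both markers overlapped between the diets. Irf8, the factor that specifies cDC1, had 659, 1438 and 752 CPM on ND and 760, 1020 and 1402 CPM on MCDHFD. Flt3, the receptor for the growth factor that maintains dendritic cells, had 170, 201 and 192 CPM on ND and 204, 283 and 323 CPM on MCDHFD. The diets overlapped for Irf8, and for Flt3 every MCDHFD value lay above the ND values, as was so for 2.99% of all genes tested by diet. The MHC class II chain H2-Aa ranged from 4665 to 10301 CPM and the integrin Itgax from 100.3 to 195 CPM, with the diets overlapping for both. Within the 140 cells, Irf8 had 1007 to 1839 CPM, and Flt3 had 263, 234 and 269 CPM on ND and 265, 326 and 349 CPM on MCDHFD, where the diets overlapped.

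Against Cd209a-positive dendritic cells, the gated cells carried the known cDC1 program. UMIs were summed per library and cell type and compared within libraries with edgeR's quasi-likelihood test, with the gate genes left out. Of 4316 genes tested, 631 (14.6%) had a Benjamini-Hochberg adjusted p under 0.05, 335 (7.76%) higher in gated cells and 296 (6.86%) lower. Of 24 cDC1 identity genes, 21 passed the filter on low counts, which genes high in 1 cell type alone can pass, and 18 of these were higher and none lower. Their median log2 fold change was 3.72, beside 0.03 over all genes tested. These genes are known for cDC1 and describe the gate rather than test it.

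Naaa, a lysosomal amidase, had 460, 623 and 406 CPM in gated ND cells, 462, 978 and 865 CPM in gated MCDHFD cells, and 25.1 to 65.5 CPM in Cd209a-positive cells. Its log2 fold change was 3.87 ± 0.228 (SE, adjusted p = 4.17e-08 by edgeR's quasi-likelihood test), higher in 6 of 6 libraries. Ppt1, a lysosomal thioesterase, ranged from 808 to 1544 CPM in gated cells and from 42.99 to 171 CPM in Cd209a-positive cells. Ifi205, an interferon-inducible gene of the p200 family, ranged from 211 to 385 CPM in gated cells and had 3 UMIs in all Cd209a-positive cells together. Tlr3, the endosomal receptor for double-stranded RNA, ranged from 67.6 to 92.0 CPM against 2 UMIs in the Cd209a-positive cells, and Tlr11, which senses profilin of parasites, from 52.0 to 157 CPM against 0 to 26.5 CPM. For these 5 genes every gated level lay above every Cd209a-positive level. Rab7b, a small GTPase of late endosomes, had 384 UMIs in gated cells and 1 in Cd209a-positive cells. Gcsam, a lymphoid signalling adaptor gene, had 165 UMIs, all in the cells led by cDC1 markers, and none in Cd209a-positive cells, which makes it at least 26.1-fold higher against a floor of 3 counts over that group.

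Transcription factors and cross-presentation genes of the list followed with log2 fold changes up to 2.50. Id2, an inhibitor of DNA-binding factors that cDC1 need, ranged from 471 to 988 CPM in gated cells and from 62.6 to 327 CPM in Cd209a-positive cells, a log2 fold change of 2.50 ± 0.251. Batf3 had 146, 231 and 138 CPM on ND and 164, 256 and 223 CPM on MCDHFD, against 66.7 to 150 CPM in Cd209a-positive cells, a log2 fold change of 0.88 (adjusted p = 0.0126). Wdfy4 was also higher by 0.99 and Rab43, a trafficking GTPase used in cross-presentation, by 0.96. Zbtb46 (log2 fold change -0.48) and Bcl6 (-0.62), factors that both conventional types use, and Jaml (0.80, adjusted p = 0.0540) did not pass. Itgae, Ly75 and Nfil3 did not pass the filter on low counts. Itgae, the CD103 integrin chain, had 16.5 to 128 CPM in gated cells and 3 UMIs in Cd209a-positive cells.

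Cadm1 showed how the mixture enters a level. Cadm1 is an adhesion molecule that binds CRTAM on T and NK cells and lies at chr9:47530173-47857637 on the plus strand. It had 1230.0, 306 and 909 CPM in gated ND cells and 810.1, 1102 and 565 CPM in gated MCDHFD cells, against 0 to 30.3 CPM in Cd209a-positive cells. Its log2 fold change was 6.35 ± 0.428. Of its 2209 UMIs, 864 came from the 48 macrophage-marker cells, which averaged 18 UMIs each, and 1334 from the 140 cells led by cDC1 markers. Its presence therefore does not separate these kinds, unlike Naaa, for which 31 of 1593 UMIs came from macrophage-marker cells.

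**Figure D3:**
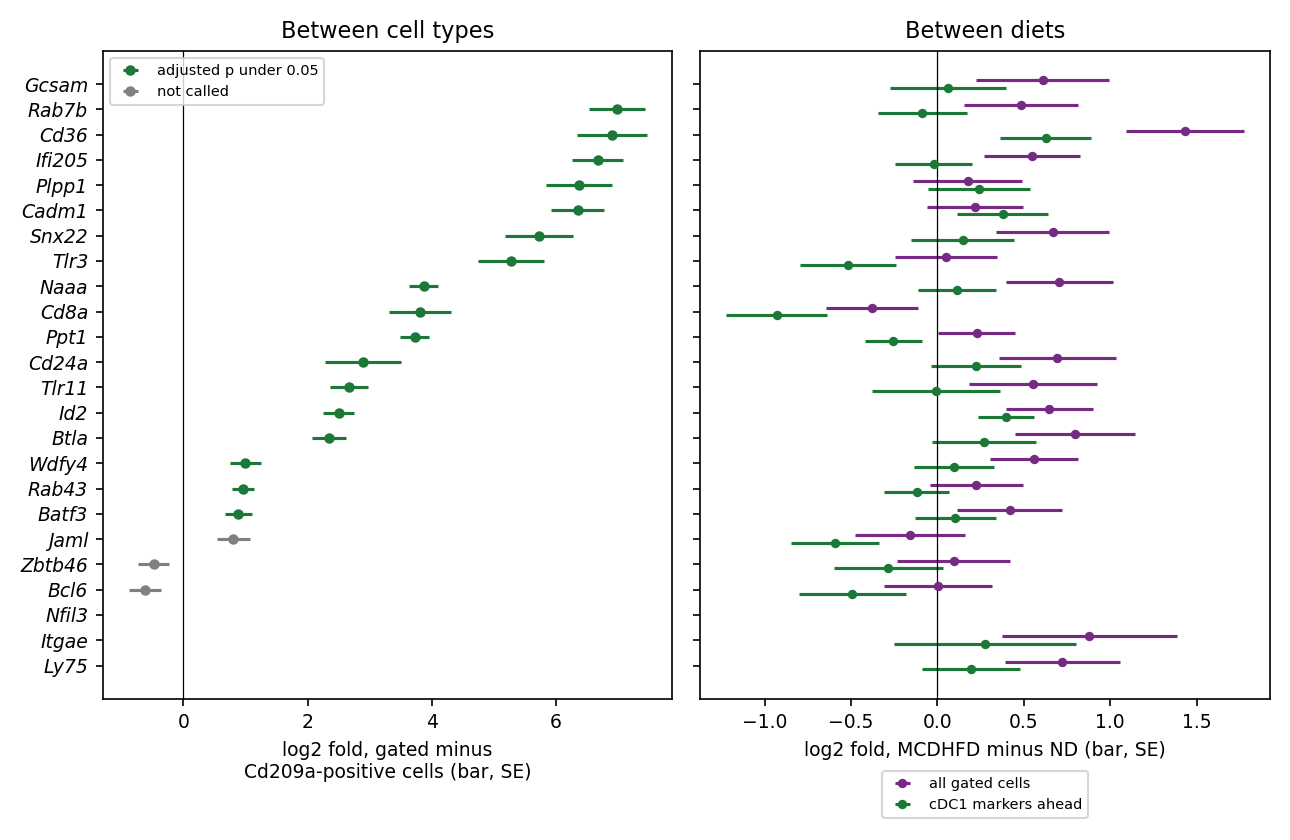
cDC1 identity genes, 1 per line. Left, log2 fold change of gated over Cd209a-positive cells with its SE, for genes that passed the low-count filter and had UMIs in both types; right, log2 fold change of MCDHFD over ND in the whole gate (purple) and in the 140 cells led by cDC1 markers (green), with SE. In the whole gate 21 of 23 genes lie right of 0 between diets, and in the 140 cells 13 of 23.

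Many of the genes with the largest folds over Cd209a-positive cells came from macrophage-marker cells. All 9 red pulp macrophage markers were higher in gated cells, with a median log2 fold change of 5.49. None was tested in the 140 cells. Those cells were sorted by having few UMIs of these same markers, so the absence of the markers there is no separate finding. Ptprm, a receptor phosphatase, had 1234 UMIs, all in the macrophage-marker cells. Mertk, the receptor with which macrophages take up dead cells, had 1393 of 1394 UMIs there, Dgki 1232 of 1233, the iron exporter Slc40a1 1578 of 1585 and the complement component C6 275 of 276. Other leading genes came mainly from the cells led by cDC1 markers. Cxcl9, a chemokine for CXCR3-bearing T cells, had 320 of 365 UMIs in them and none in Cd209a-positive cells, which makes it at least 57.7-fold higher. P3h2, a collagen prolyl hydroxylase, had 270 of 335 UMIs in them and was at least 53.0-fold higher. Gpr141b had 204 of 210 UMIs in them and was at least 33.2-fold higher. P2ry14, a receptor for UDP-sugars, ranged from 127 to 219 CPM in gated cells and had 1 UMI in Cd209a-positive cells.

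Cxcl9 had 240 CPM in ND 1, 96.4 in ND 2 and 306 in ND 3, and 77.0, 55.3 and 162 CPM in MCDHFD 1, 2 and 3. A single ND 3 cell held 93 of its UMIs. Its diet difference is given here as a value, a log2 fold change of -1.17 ± 0.465 (edgeR adjusted p = 0.618), with overlapping diets.

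Several genes for loading MHC class I were higher in the gated cells, beside 7.76% of all genes called higher and 6.86% lower. Of 22 tested members of the class I and cross-presentation list, 10 were higher and 2 lower, with a median log2 fold change of 0.55 beside 0.03 over all genes. Psmb9, an immunoproteasome subunit, had 493, 589.7 and 460.05 CPM on ND and 356, 524 and 479.9 CPM on MCDHFD, against 162 to 328 CPM in Cd209a-positive cells. Its log2 fold change was 1.07 ± 0.187 (edgeR adjusted p = 0.000971), higher in 6 of 6 libraries, a direction shared by all libraries in 8.46% of all genes tested upward and 9.34% downward. Psme1 and Psme2, the proteasome activator subunits, were higher by 0.89 and 0.99, Tap2, a subunit of the peptide transporter, by 0.83, and Pdia3, a chaperone of the loading complex, by 0.79. Psmb8 was higher by 0.67 with 5 of 6 libraries in that direction. Cybb, the NADPH oxidase subunit of the phagosome, went the other way at -1.44, and the oxidase regulator Rac2 at -0.67. Within the 140 cells the log2 fold changes were 1.56 for Psmb9, 1.35 for Psme1 and -3.12 for Cybb.

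MHC class II processing genes were lower or did not pass, beside 6.86% of all genes called lower and 7.76% higher. Of 13 members 4 were lower and none higher, with a median log2 fold change of -0.33 and 12 of 13 negative. In the 140 cells the median was -0.04, with 6 positive and 7 negative. Ifi30, the thiol reductase of lysosomes, ranged from 473 to 960 CPM in gated cells and from 856 to 1766 CPM in Cd209a-positive cells, a log2 fold change of -0.95 ± 0.138 (edgeR adjusted p = 0.000219). H2-DMb2, a peptide-exchange chain, had a log2 fold change of -1.55, the protease Ctss had -0.67, and the exchange inhibitor chain H2-Oa had -0.76. H2-Oa had -0.37 in the 140 cells, and Ctss had -1.20.

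**Figure D4:**
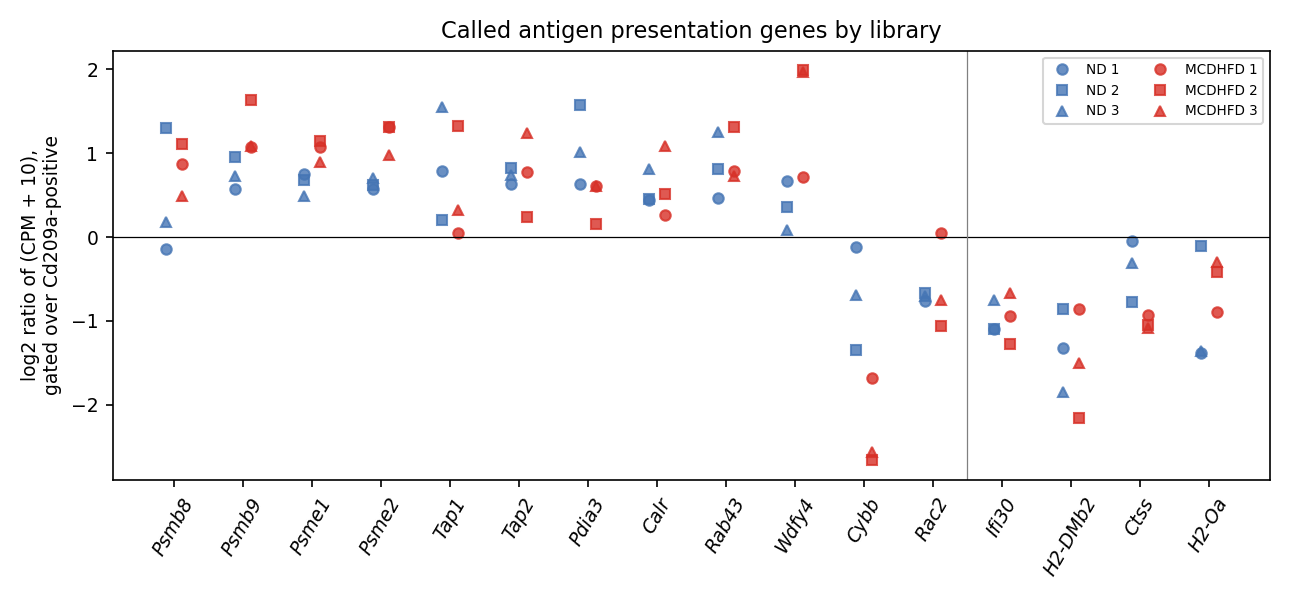
Each point is 1 library, and the y axis is the log2 ratio of CPM plus 10 in gated cells over Cd209a-positive cells. The 12 class I and cross-presentation genes that passed the test stand left of the grey line and the 4 class II genes right of it; blue is ND and red MCDHFD. Psmb9, Psme1 and Psme2 lie above 0 in all 6 libraries, and Ifi30 and H2-DMb2 below 0 in all 6.

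Most tested type 2 identity genes were lower, as were some of the receptors that place dendritic cells in the spleen. Over all genes tested 6.86% were called lower and 7.76% higher. Of 11 tested members of the type 2 list 6 were lower and 1 higher (median -1.82). Cd4 had -2.99, Itgam, the CD11b chain, -2.42, and the lymphotoxin gene Ltb -2.16, while Clec12a, an inhibitory lectin also found on cDC1, was higher by 1.27. Gpr183, the oxysterol receptor that positions type 2 cells in the bridging channel, ranged from 4.75 to 57.7 CPM in gated cells and from 113 to 200.1 CPM in Cd209a-positive cells, a log2 fold change of -2.44. Ccr2, the receptor for CCL2, had -1.55, and of 11 positioning receptors 4 were lower and none higher. Among the genes with the largest negative folds were Ffar2, a receptor for short-chain fatty acids (-3.41), St8sia6, a sialyltransferase (-3.79), and the class II chain H2-Eb2 (-2.79). Dscam had the largest of these (-4.44), but 49 of its 61 UMIs in gated cells lay in 1 MCDHFD 1 cell.

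Lipid and metabolic genes are given beside the 7.76% of all genes called higher and 6.86% called lower. Of 16 lipid handling genes 6 were higher and none lower (median 0.46). Cd36, the fatty acid and apoptotic cell receptor, had 368 UMIs in gated cells and 1 in Cd209a-positive cells, and Acadl, an enzyme of fatty acid oxidation, was higher by 1.01. Apoe (1.55) and the lysosomal lipase Lipa (1.02) were also called, but in the 140 cells their log2 fold changes were 0.11 and 0.14. Of 40 oxidative phosphorylation genes 2 were higher and none lower, with a median of 0.12 in the whole gate and 0.45 in the 140 cells, where 38 of 39 were positive. Slc3a2, a subunit of amino acid exchangers, was higher by 1.48, and Pcyt1a, the rate-limiting enzyme of choline use for phosphatidylcholine, was lower at -1.95. Of 12 methionine, folate and choline genes 3 were higher and 2 lower.

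Cytokine and co-stimulation genes were few above the low-count filter, and 7.76% of all genes were called higher and 6.86% lower. Of 7 cytokine and chemokine genes 3 were higher and 1 lower: Cxcl9, Cxcl16 (1.71), the chemokine for CXCR6-bearing T cells, and Il18 (1.37), against Ccl9 (-2.01). Il18 had 60.3 to 149 CPM in the whole gate but 20.8 to 55.6 CPM in the 140 cells, beside 8.84 to 54.6 CPM in Cd209a-positive cells. Cd86, a ligand of CD28, was higher by 1.52, and Relb, an NF-kappaB subunit of maturation, had -1.37. Il12b, a subunit of the T cell cytokine IL-12, had 12 UMIs in 3 gated cells.

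Diet was compared within the gated cells, and the model allowed for filtered against unfiltered barcode lists. No gene of 5547 tested (0.0%) had an adjusted p under 0.05 with edgeR's quasi-likelihood test, and 411 genes (7.41%) lay under 0.05 before adjustment. In simulated counts this test recovered 10% of genes with a log2 change of 1, so most changes of that size would be missed. DESeq2 called 7 genes, among them Fgfr1 and Bcl2l14, higher on MCDHFD, and Ly6c2, Hs3st2, Kcnj16 and Adgre1, lower. Without MCDHFD 2 edgeR called 12 genes. The 5 genes with the smallest edgeR p on each side are described next by their values. With all libraries edgeR called none of them, and DESeq2 called the 6 just named.

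On the higher side, Fgfr1 and 4 further genes had the smallest p. Fgfr1, a fibroblast growth factor receptor gene at chr8:25513654-25575718 on the plus strand, had 0, 8.27 and 5.41 CPM on ND and 38.5, 45.2 and 114 CPM on MCDHFD. The groups did not overlap, as was so for 2.99% of all tested genes in this direction. Its log2 fold change was 3.87 ± 0.567 (SE, edgeR adjusted p = 0.0564), from 76 UMIs in 31 cells, and the adjusted p ranged from 0.0250 to 0.325 with 1 library left out. As a difference of log2 CPM with a prior count of 2, which damps low counts, it was 2.77 among unfiltered-list libraries and 3.17 in the filtered pair; the edgeR fit to the 4 unfiltered-list libraries alone gave 4.07. In the 140 cells the log2 fold change was 3.62 ± 0.608, and in Cd209a-positive cells it was 2.81 ± 0.731 (adjusted p = 0.0510).

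Bcl2l14, a BCL2 family gene at chr6:134396318-134438736 on the plus strand, had 19.6, 22.04 and 10.8 CPM on ND and 106, 68.7 and 90.3 CPM on MCDHFD. Its log2 fold change was 2.35 ± 0.368 (edgeR adjusted p = 0.0564), and 44 of its 136 UMIs lay in 1 MCDHFD 1 cell. Pcsk5, a proprotein convertase, had 13.1, 8.27 and 5.41 CPM on ND and 50.03, 58.6 and 47.5 CPM on MCDHFD, a log2 fold change of 2.53 ± 0.451 (edgeR adjusted p = 0.0837) from 17 cells. It had no UMI in Cd209a-positive cells. Ocstamp, known for cell fusion of osteoclasts, had 15.3, 22.04 and 8.12 CPM on ND and 46.2, 45.2 and 119 CPM on MCDHFD, a log2 fold change of 2.14 from 50 cells. The MCDHFD values of these 3 genes all lay above the ND values, and their log2 fold changes in the 140 cells were 2.04, 1.85 and 1.57. Zdhhc14, a palmitoyltransferase, overlapped between diets, and 95 of its 258 UMIs lay in 1 MCDHFD 2 cell.

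On the lower side, 5 genes had the smallest p. Ly6c2, a monocyte surface gene, had 26.2, 496 and 94.7 CPM on ND and 3.85, 8.37 and 42.8 CPM on MCDHFD, a log2 fold change of -3.32 ± 0.515 (edgeR adjusted p = 0.0564). The diets overlapped, and 152 of its 243 UMIs lay in 1 ND 2 cell. The summed UMIs of the monocyte markers reached 651 in 1 ND 2 cell against 280 in the next cell. Those of neutrophil markers reached 1921 in 1 ND 1 cell against 545 in the next. Summed neutrophil markers in the cells led by cDC1 markers ranged from 26.0 to 10090 CPM on ND, highest in ND 1. On MCDHFD they ranged from 30.8 to 2241 CPM. Summed monocyte markers there ranged from 323 to 2582 CPM on ND, highest in ND 2, and from 283 to 410 CPM on MCDHFD. The cells led by cDC1 markers were thus not free of these markers, whose part in the diet differences was not tested. The heparan sulfate enzyme gene Hs3st2 had all of its 476 UMIs in macrophage-marker cells, the potassium channel gene Kcnj16 136 of 138, and Adgre1, which encodes the macrophage antigen F4/80, 493 of 531. Lilrb4a, an inhibitory receptor gene, had 69.8, 27.6 and 67.7 CPM on ND and 11.55, 15.1 and 9.50 CPM on MCDHFD without overlap, as for 3.26% of all genes in that direction, and 47 of its 84 UMIs came from macrophage-marker cells. The summed CPM of the 9 macrophage markers was 1783 to 6937 on ND and 1202 to 4616 on MCDHFD, with no marker at 0, and all 9 had negative log2 fold changes (median -0.74). Their part in these results was not tested.

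**Figure D5:**
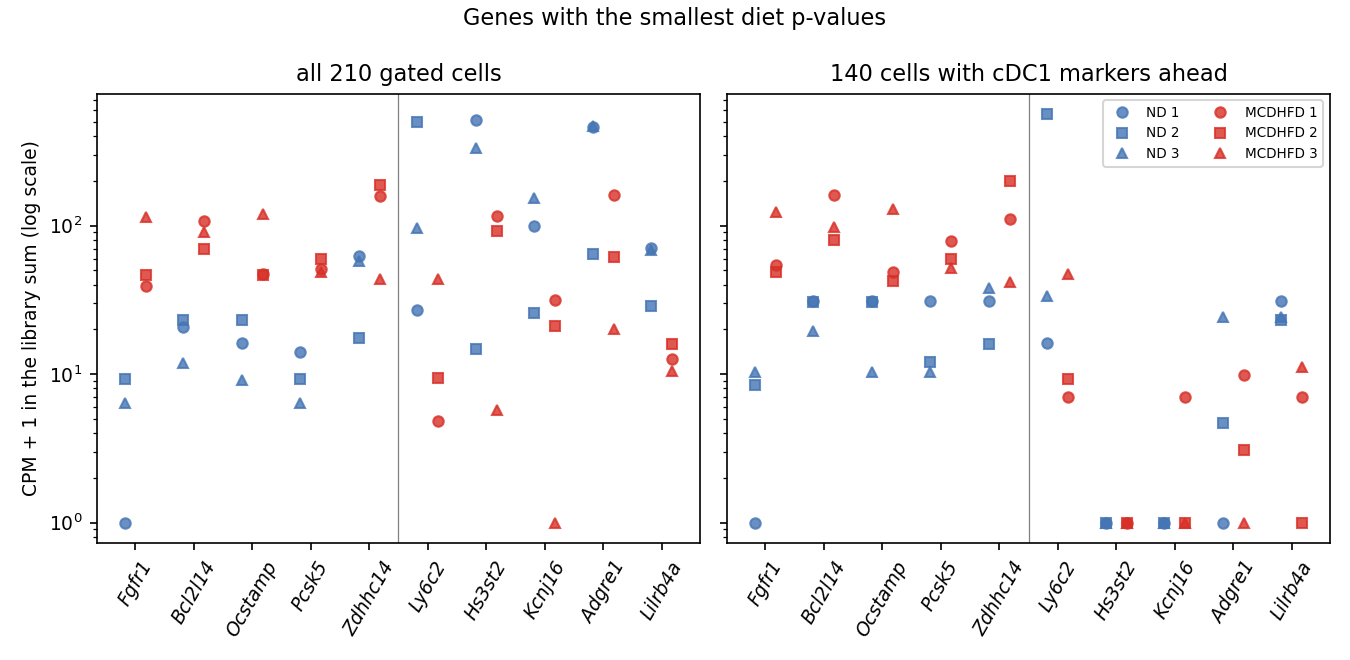
CPM plus 1 (log scale) of the 10 genes with the smallest diet p-values, 5 higher and 5 lower on MCDHFD, by library. In the whole gate (left) Fgfr1, Bcl2l14, Ocstamp and Pcsk5 separate the diets upward; in the 140 cells led by cDC1 markers (right) Hs3st2 is at 0 in every library.

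The cDC1 identity genes had mostly positive diet differences in the whole gate, and a median near 0 in the 140 cells. Of 23 members that passed the filter none was called, 21 had positive log2 fold changes and the median was 0.55, beside 0.01 over all genes. In the 140 cells the median was 0.10 with 13 of 23 positive. Id2 had 471, 623 and 622 CPM on ND and 722, 988 and 879 CPM on MCDHFD without overlap, a log2 fold change of 0.65 ± 0.253 (edgeR adjusted p = 0.618) in the whole gate and 0.39 in the 140 cells. In Cd209a-positive cells Id2 rose by 1.65 (edgeR adjusted p = 0.0212). Cd36 had 45.8, 102 and 97.4 CPM on ND and 167, 234 and 223 CPM on MCDHFD, a log2 fold change of 1.43 ± 0.340 (edgeR adjusted p = 0.309) in the gate and 0.63 in the 140 cells. Tlr3 and Cd8a had -0.52 and -0.93 in the 140 cells. The cells led by cDC1 markers were 42.1%, 69.2% and 55.6% of gated cells in ND 1, 2 and 3. In MCDHFD 1, 2 and 3 they were 63.0%, 83.7% and 87.5%, which overlapped with ND. The part of these shares in the diet differences was not tested.

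Interferon genes had mostly negative diet differences in the whole gate and in the 140 cells, with none called. Of 43 type I interferon response genes 23 passed the filter, 22 of them with negative log2 fold changes and a median of -0.55. Over all 5547 genes tested 2732 were negative, with a median of 0.01. In the 140 cells 14 of 16 members were negative with a median of -0.31, beside 1678 of all 3347 genes negative. Ifi27l2a had 604, 499 and 455 CPM on ND and 248, 248 and 0 CPM on MCDHFD, with 439 of its 903 UMIs in the 22 Cd209a-type cells, of which MCDHFD 3 had none, and in Cd209a-positive cells it fell by 1.42 on the log2 scale (edgeR adjusted p = 0.00679). In Cd209a-positive cells 17 members of the list passed the filter, with a median of -0.01, 8 positive and 9 negative. Ifi27l2a was the 1 called, beside 0.414% of all genes called lower and 1.11% higher in those cells. H2-Q7, a class I-like gene that is in none of the lists, had 157, 146 and 149 CPM on ND and 67.3, 45.2 and 80.8 CPM on MCDHFD, a log2 fold change of -1.23 ± 0.295 (edgeR adjusted p = 0.311) in the gate and -1.32 in the 140 cells. In Cd209a-positive cells H2-Q7 fell by 1.78 (edgeR adjusted p = 0.00521). H2-Q7 has close class I paralogs, so its count is uncertain where reads could be split between them.

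Ifitm2, a membrane protein that restricts virus entry, had positive diet differences. At chr7:140954837-140955987 on the minus strand, it had 106, 126 and 102 CPM on ND and 319, 378 and 482 CPM on MCDHFD in the 140 cells, a log2 fold change of 1.79 ± 0.226. The diets did not overlap there, as was so for 4.69% of genes upward and 3.5% downward in the 140 cells. In the whole gate the values overlapped, at 220.3, 303 and 94.7 CPM and 271, 479 and 485 CPM, with a log2 fold change of 1.11 ± 0.369 (edgeR adjusted p = 0.546). In Cd209a-positive cells Ifitm2 rose by 1.21 (edgeR adjusted p = 0.00521), from 343 to 476 CPM on ND to 787 to 1130 CPM on MCDHFD. Its neighbours in the Ifitm family are similar in sequence, so its count too is uncertain. Ifitm2 was singled out after its values were seen.

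The other lists had medians on either side of that of all genes (0.01). MHC class II had a median log2 fold change of 0.18 (13 measured), class I and cross-presentation -0.18 (24), oxidative phosphorylation 0.10 (40), methionine, folate and choline 0.05 (12) and lipid handling -0.19 (20). Type 2 identity had -0.40 (7 of 9 negative), pattern recognition -0.35 (8 of 12 negative), the BCL2 family 0.28 (9 of 9 positive) and immediate early genes 0.28 (9 of 13 positive). In the 140 cells class I and cross-presentation had -0.33, with 18 of 22 negative, and the BCL2 family had -0.06. No member of these lists was called by edgeR in the whole gate. Cell cycle genes had -0.22 (18 measured) in the gate and -0.50 (16) in the 140 cells, where none was positive. Mki67 or Top2a, genes of dividing cells, had a UMI in 32 of 210 gated cells (15.2%) at a median depth of 10632 UMIs. The shares were 18.9% of 95 Cd209a-positive cells with fewer than 10 macrophage-marker UMIs and 4.58% of B cells. With cells thinned to 2000 UMIs the shares were 9.55% of 199 gated cells, 5.32% of 94 Cd209a-positive cells and 1.83% of B cells. By diet the thinned shares were 8.25% ± 8.35 of gated cells on MCDHFD against 10.9% ± 5.07 on ND (SD, n = 3, two-sided exact permutation test, p = 0.7). The glucocorticoid-induced gene Fkbp5 had 65.4, 27.6 and 64.9 CPM on ND and 90.4, 206 and 85.5 CPM on MCDHFD, a log2 fold change of 1.36 ± 0.379 (edgeR adjusted p = 0.447), with 137 of 252 UMIs in macrophage-marker cells, and in Cd209a-positive cells it rose by 2.74 (edgeR adjusted p = 0.000806).

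Mature dendritic cells were rare in the gate. Ccr7, the receptor that guides mature dendritic cells to T cell zones, had 66 UMIs in 5 cells, 37 of them in 1 MCDHFD 3 cell. Fscn1, an actin-bundling gene of the mature state, had 130 UMIs in 6 cells, 84 of them in 1 MCDHFD 1 cell. Neither number allows a comparison of diets. Trnp1, the gene in the study's title, had 1 UMI in 1 gated cell of MCDHFD 3, and Syt6 had none.

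In Cd209a-positive cells edgeR called 48 of 3141 genes (1.53%) by diet, 35 (1.11%) higher and 13 (0.414%) lower on MCDHFD, from 98 cells. DESeq2 called 11, and edgeR called 1 with diet alone in the model, 0 with the replicate number as a block and 5 in cells with at least 2 Cd209a UMIs. Wfdc17, a small secreted protein gene, rose by 2.66 (edgeR adjusted p = 9.86e-08), from 148 to 238 CPM on ND to 920 to 1592 CPM on MCDHFD, while in gated cells it had 78.5, 118 and 92.0 CPM on ND and 175, 169 and 52.3 CPM on MCDHFD, with 166 of 316 UMIs in the 22 Cd209a-type cells. Without MCDHFD 2 the calls in Cd209a-positive cells numbered 5, and without MCDHFD 1 they numbered 11.

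The difference between the diet effects was tested directly, and no gene passed. Of 5634 genes 0 (0.0%) had an adjusted p under 0.05 by edgeR, and DESeq2 called 8. Before adjustment, 457 genes (8.11%) lay under 0.05. Without ND 2 edgeR called 71 genes, without MCDHFD 3 54, without ND 1 31, without ND 3 12 and without MCDHFD 2 2. Calls in 1 cell type and not in the other therefore do not show that the types responded differently.

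Plac8, a small cysteine-rich protein of immune cells, had the smallest p of that test on the higher side. In gated cells it had 576, 642 and 379 CPM on ND and 887, 1047 and 822 CPM on MCDHFD, and in Cd209a-positive cells 1669, 1653 and 1420 CPM on ND and 964, 1147 and 486 CPM on MCDHFD. The diets did not overlap in either cell type, with the gated cells higher and the Cd209a-positive cells lower on MCDHFD. In Cd209a-positive cells 6.18% of genes were without overlap upward and 4.87% downward. The log2 difference between the effects was 1.81 ± 0.276 (edgeR adjusted p = 0.0663). In the 140 cells its diet log2 fold change was 0.85, the same as in the whole gate. Anxa6, a membrane-binding annexin, had a log2 difference of 1.63 (edgeR adjusted p = 0.166), with 465 of 535 UMIs in the cells led by cDC1 markers. On the lower side, Mrc1 and Adgre4 had 1282 of 1296 and 755 of 815 UMIs in macrophage-marker cells, and their edgeR adjusted p was 0.0840 and 0.0712.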

How the data were processed

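Single-cell 3' libraries (10x Genomics chemistry, mm10) of splenocytes were deposited as UMI count matrices. The authors' counts are raw UMI counts per gene and barcode, made per the file headers with Cell Ranger 9.0.1 (ND 1, ND 3, MCDHFD 1 and MCDHFD 2) or 7.2.0 (ND 2 and MCDHFD 3); the submitters' processing notes name Cell Ranger 9.1.0 and Seurat 4.3.0. Kept barcodes had 1000 or more UMIs, 400 or more genes and no more than 10% of UMIs from mitochondrial genes, and the gate was applied to raw UMIs. Doublets were predicted with Scrublet in scanpy 1.11.5 and kept. Free RNA was not removed.

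Gated UMIs were summed per library. edgeR 4.0.16 (R 4.3.3; TMM scaling, filterByExpr, quasi-likelihood test, Benjamini-Hochberg adjustment over all genes tested) fitted diet plus list form, the interaction with cell type within libraries, and cell type within libraries. DESeq2 1.42.0 was an alternative. Shares were compared by exact permutation. The tests were checked on simulated counts with 200 changed genes. The diet test in gated cells recovered 10% of them at a log2 change of 1 and 89.5% at 2, with 2 and 9 false calls. The test between cell types recovered 62% and 98.5%, with 7 and 9 false calls. Every simulated gene had the same spread between libraries (dispersion 0.0669 for diet, 0.0517 between cell types) and no effect of list form. Recovery in the real libraries may therefore be lower. Intervals cover counting error only.

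Replicates of 1 diet differed beyond sampling noise (chi-square per degree of freedom 2.29 to 13.9).

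Genes named are the 5 smallest p per direction where fewer than 5 were called (mean log2 CPM at least 5), the largest folds otherwise, the gate genes, all cDC1 identity genes and up to 4 members of each list; other genes were chosen after their values were seen. A few genes that the rule names are not reported here. The members and lists were chosen with earlier results of these data known.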

Additional observations from a re-analysis of the deposited data

How the results depend on the processing

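The diet difference in the share of gated cells among all cells could not reach p under 0.05 with 3 libraries a diet. It was positive under each alternative, from 0.0197 to 0.144 points with 1 library left out, although -0.114 points in the filtered-list pair alone. The difference in the share of gated cells in the 2 gates together turned to -2.31 points with at least 2 marker UMIs. It ranged from -3.12 to 6.27 points with 1 library left out. Genes called by diet in the gated cells, all 3 kinds together, numbered 7 with DESeq2 and 4 with no low-count filter. They numbered 8 with at least 2 marker UMIs, and 0 to 12 with 1 library left out. Chosen after seeing the data, leaving out macrophage-marker cells gave 5, and the 140 cells gave 1 (Ifitm2), a count that is no independent test. In Cd209a-positive cells the calls numbered 11 with DESeq2, 118 with no filter, 5 with at least 2 marker UMIs, 31 with no Cd79a UMI, 1 with diet alone, and 5 to 72 with 1 library left out. The difference in diet effect gave 8 with DESeq2, 61 with no filter, 20 with at least 2 marker UMIs, 22 with no UMI of Cd79a or Cd209a, 73 in the 4 unfiltered-list libraries, and 0 to 71 with 1 library left out. Between the cell types the calls numbered 1243 with no filter and 490 to 616 with 1 library left out. In the 140 cells they numbered 947 (459 higher, 488 lower). These cells were sorted after seeing the data, by markers that differ between the compared types, so this count too is no independent test.

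Libraries with the same number in both diets correlated at 0.578, 0.0634 and -0.432 in their deviations, so the numbers were not taken to pair them. With the replicate number as a block the cDC1 differences were 0.0673 and 1.12 points, and the diet calls were 0 in cDC1 and 0 in Cd209a-positive cells. The 10 genes with the smallest diet p gave 152 alternative values, 137 on the same side of the threshold, 15 now past it and 0 reversed. The genes were chosen by their p in these same libraries, which the alternatives mostly share, so few reversals could occur. The alternatives include the sets of cells chosen after seeing the data, and the agreement is no independent test. With 210 cells, a gene in few cells rests on few UMIs, and differences below that were not detectable at this depth. The causes of these changes were not tested.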
